A study of Rattus norvegicus with 4 samples.

Results

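Chemokines and their receptors were followed in rat hippocampal progenitor cells as 9 genes: the ligands Ccl2, Ccl7, Ccl20, Cxcl1, Cxcl10, Cxcl12 and Cx3cl1 and the receptors Cxcr4 and Ackr3. They were taken by gene symbol, and all 9 were found among the 14217 genes named on the array. The members were selected on their log2 values on these same 4 arrays, with earlier results known, so their levels and differences are a description and carry no test. The study exposed cultured progenitor cells of Fisher 344 rats for 4 days to the small molecule KHS101, which was studied as an inducer of neurons, at 5 uM or at 1.7 uM, to 1 uM retinoic acid combined with forskolin (an activator of adenylyl cyclase), which served as positive control, or to the solvent dimethyl sulfoxide (DMSO). The labels give the same strain and cell type for all 4 groups, and no engineered allele. The protocol, which covers several experiments, gives DMSO at 0.1%; the labels give no forskolin concentration, and the design text lists retinoic acid without forskolin. Each group was 1 Affymetrix expression array, so no difference below has a replicate check or a p-value.

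Chemokines are small secreted proteins that steer cells along gradients by binding receptors of the G protein-coupled class. CXCL12 acts through CXCR4, a pair that guides progenitor cells in the developing hippocampus, while ACKR3 binds CXCL12, recruits arrestin and removes the ligand from outside the cell. CCL2 and CCL7 share the receptor CCR2 and attract monocytes, and CX3CL1 (fractalkine) is held in the membrane of neurons and is read by CX3CR1 on microglia.

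The deposited values are log2 expression values per probe set. A value above log2 = 5, the floor used for specific signal, counted as measured, values under it were raised to it, and genes that differed by 2-fold or more were called. Where only 1 array of a pair was measured, the size is a lower bound, written "at least". On each array between 8389 and 8471 genes lay above the floor. Of 8 measured reference genes, 0 were called in any comparison with DMSO. The 3' minus 5' end gap of the beta-actin control probes was 1.54 log2 units with KHS101 at 5 uM and 1.40 at 1.7 uM. It was 1.37 in retinoic acid with forskolin and 1.26 in DMSO. For hexokinase the gap was 0.96, 0.80, 0.66 and 0.69 on the arrays in the same order. For GAPDH it lay between -0.16 and -0.11. The part of these gaps in the differences below was not tested. Nestin (Nes), Sox2, vimentin and Fabp7 were among 9 of 12 annotated progenitor markers above the floor, whereas Pax6, Prom1 and Hes5 were under it on all 4 arrays. Markers of the oligodendrocyte lineage were also widely measured, 11 of 12, so the labelled progenitor cultures carried this lineage's transcripts too.

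Of the 9 members, 5 were above the floor on at least 1 array: Ccl2, Ccl7, Cxcl12, Cx3cl1 and Ackr3. Ccl7 and Cxcl12 were measured only where they were high, so their differences from the other arrays follow in part from the filter. The other 4, Ccl20, Cxcl1, Cxcl10 and Cxcr4, stayed under the floor throughout. RefSeq promoters (GRCr8, 250 bases before to 50 after the gene start) matched 8 of the 9 members; Ccl2 had no entry. Those of the 4 measured members with an entry are shown because these genes had the differing levels described next. Capitals mark every match, on either strand, to 7 motifs: TATAAA, the hypoxia response core ACGTG, the cyclic AMP response element (CRE) core TGACG, the AP-1 site TGANTCA, the nuclear receptor core AGGTCA, the C/EBP-ATF element TGATGNAA and the kappaB motif.
Ccl7, chr10:67513845-67514144, plus strand: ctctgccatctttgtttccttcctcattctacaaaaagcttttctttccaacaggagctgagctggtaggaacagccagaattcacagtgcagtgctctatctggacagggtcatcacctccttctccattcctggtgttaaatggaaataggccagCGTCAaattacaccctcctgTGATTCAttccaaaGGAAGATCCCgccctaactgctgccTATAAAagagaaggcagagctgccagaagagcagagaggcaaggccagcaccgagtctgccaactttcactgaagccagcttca
Cxcl12, chr4:152060531-152060830, plus strand: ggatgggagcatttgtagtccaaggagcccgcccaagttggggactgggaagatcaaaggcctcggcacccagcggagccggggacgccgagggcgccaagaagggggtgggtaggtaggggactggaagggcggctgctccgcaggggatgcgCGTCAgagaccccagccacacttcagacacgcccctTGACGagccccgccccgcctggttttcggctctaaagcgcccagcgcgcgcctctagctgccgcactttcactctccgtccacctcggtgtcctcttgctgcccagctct
Cx3cl1, chr19:10242771-10243070, minus strand: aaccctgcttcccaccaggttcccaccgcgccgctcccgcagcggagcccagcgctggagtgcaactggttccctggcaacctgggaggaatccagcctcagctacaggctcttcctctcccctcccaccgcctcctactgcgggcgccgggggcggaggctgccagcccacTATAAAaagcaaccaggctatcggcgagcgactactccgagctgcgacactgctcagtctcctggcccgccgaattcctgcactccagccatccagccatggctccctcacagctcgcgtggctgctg
Ackr3, chr9:98247104-98247403, plus strand: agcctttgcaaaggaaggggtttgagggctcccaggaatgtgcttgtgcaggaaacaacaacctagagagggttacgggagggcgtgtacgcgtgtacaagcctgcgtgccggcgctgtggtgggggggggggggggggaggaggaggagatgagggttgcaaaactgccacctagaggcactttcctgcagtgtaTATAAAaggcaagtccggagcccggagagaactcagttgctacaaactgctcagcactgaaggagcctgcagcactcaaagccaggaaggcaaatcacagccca
In the Ccl7 promoter TATAAA began at position -34 from the gene start, and TGATTCA (AP-1) at -73 read TGAATCA on the opposite strand. On that opposite strand it also held TGACG at -93 and the kappaB match GGGATCTTCC at -59. The Cxcl12 promoter held TGACG at -96 on the opposite strand and at -60, and no TATAAA. The promoters of Cx3cl1 and Ackr3 matched TATAAA alone, at -78 and -54. None of the matches in these 4 promoters overlapped a match to another motif. Among all 33469 promoters of the table, 14.2% held TATAAA, 21.2% TGACG, 7.33% TGANTCA, 7.51% the kappaB motif, 19.3% ACGTG, 16.2% AGGTCA and 3.98% TGATGNAA. Of the 8 member promoters, measured or not, 5 held TATAAA, 4 TGACG, 4 the kappaB motif, 2 TGANTCA, 1 AGGTCA, and 0 ACGTG or TGATGNAA. A match is a run of letters and does not show binding.

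The ligand Ccl2, which draws monocytes to injured tissue, had log2 values of 10.97 with KHS101 at 5 uM, 11.09 with KHS101 at 1.7 uM and 13.88 in retinoic acid with forskolin, against 8.42 in DMSO. All 3 treated arrays were above DMSO, and the retinoic acid array was the highest. The level of Ccl2 was 5.88-fold higher at 5 uM KHS101, 6.38-fold higher at 1.7 uM and 44.2-fold higher on the retinoic acid array than in DMSO. Among the genes above the floor on both arrays, this placed Ccl2 at rank 45 of 8263 from the highest difference at 5 uM, at rank 24 of 8308 at 1.7 uM and at rank 3 of 8325 on the retinoic acid array. The KHS101 concentrations differed by only -0.12 on the log2 scale, 5 uM minus 1.7 uM, while KHS101 was 7.51-fold lower at 5 uM and 6.92-fold lower at 1.7 uM than retinoic acid with forskolin. No 2-fold step of Ccl2 lay between the concentrations, with 1 probe set and 1 array behind each value.

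Ccl7, whose gene follows directly after Ccl2 on chromosome 10, had log2 values of 3.46 with KHS101 at 5 uM, 3.47 with KHS101 at 1.7 uM and 9.18 in retinoic acid with forskolin, against 2.70 in DMSO. It was measured with retinoic acid and forskolin alone, where it was at least 18.1-fold higher than in DMSO and than at either KHS101 concentration. With KHS101 and in DMSO alike Ccl7 was under the floor, so a Ccl7 difference between them was not detectable here. Ccl11, the eosinophil attractant that comes next after Ccl7, was under the floor on all 4 arrays.

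**Figure D1:**
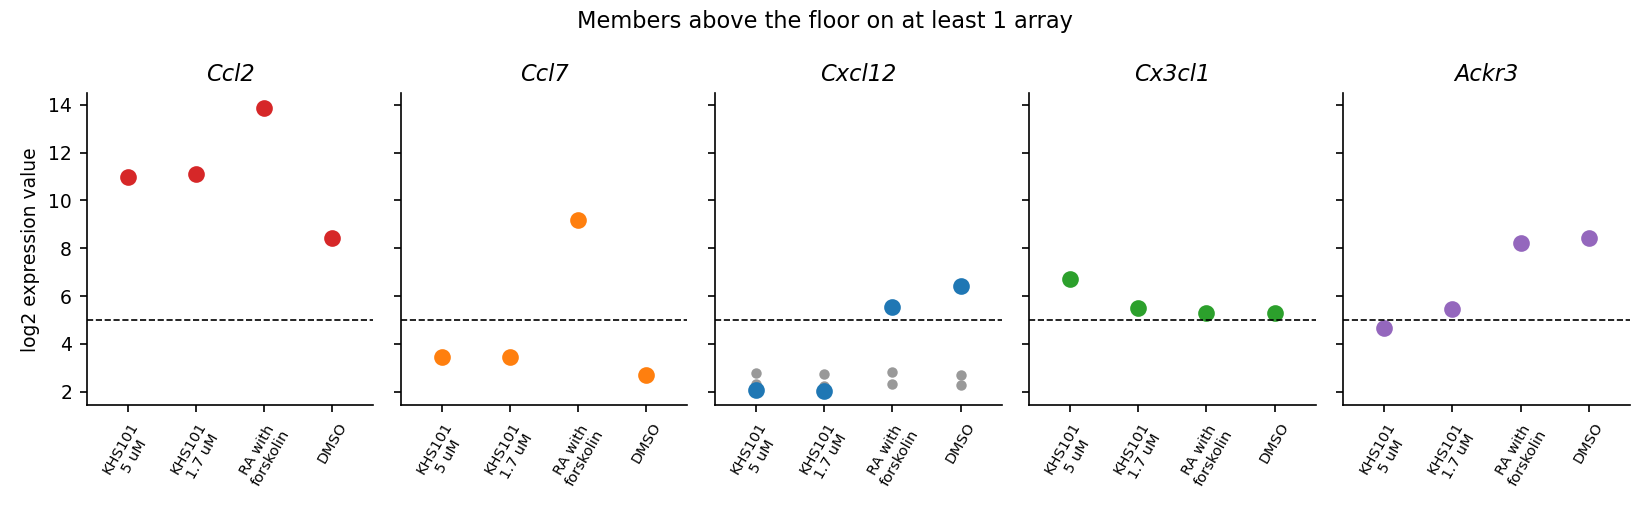
Log2 expression values of the 5 measured members on each array, 1 point per probe set, with the gene's chosen probe set in colour, the other probe sets of Cxcl12 in grey, and the floor of 5 as a dashed line (RA, retinoic acid). Ccl2 spanned 8.42 to 13.88, Ccl7 was above the floor on the retinoic acid array alone, and Ackr3 and Cxcl12 were lowest on the KHS101 arrays.

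The receptor Ackr3 had log2 values of 4.67 with KHS101 at 5 uM, 5.44 with KHS101 at 1.7 uM and 8.23 in retinoic acid with forskolin, against 8.41 in DMSO. Both KHS101 arrays were low and the other arrays high, with no value in between. Ackr3 was at least 10.7-fold lower at 5 uM and 7.86-fold lower at 1.7 uM than in DMSO, and at 1.7 uM it ranked 2 of 8308 from the lowest difference among genes measured on both arrays. With retinoic acid and forskolin the difference from DMSO was -0.18. Set against retinoic acid with forskolin, which leaves the DMSO array out, Ackr3 was at least 9.41-fold lower at 5 uM KHS101 and 6.94-fold lower at 1.7 uM. Between the concentrations it was at least 1.36-fold lower at 5 uM, a bound that does not settle whether 2-fold was reached.

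Cxcl12, the ligand that ACKR3 removes, had log2 values of 2.05 with KHS101 at 5 uM, 2.02 with KHS101 at 1.7 uM and 5.55 in retinoic acid with forskolin, against 6.42 in DMSO. It was under the floor on both KHS101 arrays and at least 2.67-fold lower there than in DMSO. Its level was 1.82-fold lower with retinoic acid and forskolin than in DMSO, under the 2-fold line. These values come from 1 of 3 probe sets, and probe sequences were not used here, so whether that probe set reads the Cxcl12 transcript was not checked. The other 2 probe sets of Cxcl12 lay between 2.24 and 2.80 on all 4 arrays, so they gave no second measurement, and taking the median over the 3 leaves Cxcl12 unmeasured. The DMSO level was also close enough to the floor that the difference at either KHS101 concentration shrinks to -0.42 with a floor of 6.

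Cxcr4, the signalling receptor for CXCL12, was under the floor in all 3 of its probe sets. The highest of them had log2 values of 4.53 with KHS101 at 5 uM, 4.42 with KHS101 at 1.7 uM and 3.39 in retinoic acid with forskolin, against 4.44 in DMSO. The retinoic acid array was the lowest, and whether that is a difference in Cxcr4 cannot be read from values under the floor. Of the axis, then, the scavenger receptor and the ligand were measured and the signalling receptor was not.

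Cx3cl1, the membrane-held ligand, had log2 values of 6.70 with KHS101 at 5 uM, 5.48 with KHS101 at 1.7 uM and 5.29 in retinoic acid with forskolin, against 5.30 in DMSO. The 5 uM array stood above the other 3, which lay within 0.19 log2 units of each other. Cx3cl1 was 2.65-fold higher than DMSO at 5 uM KHS101, while the difference at 1.7 uM was 0.19 and that of the retinoic acid array -0.0014. It was the single member called between the KHS101 concentrations, 2.33-fold higher at 5 uM. Its DMSO value was close to the floor, and with a floor of 6 or a threshold of 3-fold neither call stands. Its receptor Cx3cr1 was under the floor on all 4 arrays.

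The remaining ligands were Ccl20, which attracts lymphocytes, Cxcl1, a neutrophil attractant, and the interferon-inducible Cxcl10. Their log2 values lay between 1.91 and 2.26 on the 4 arrays, and none spread over more than 0.063 log2 units. With a median of 3.67 to 3.76 per array over all probe sets, these genes sat in the background of every array.

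Counted by comparison, 2 members were higher (Ccl2 and Cx3cl1) and 2 lower (Cxcl12 and Ackr3) with KHS101 at 5 uM than in DMSO, where 6.16% of 8543 measured genes were higher and 8.1% lower. At 1.7 uM 1 was higher (Ccl2) and 2 were lower (Cxcl12 and Ackr3), beside 4.36% and 4.27% of 8533 genes. With retinoic acid and forskolin 2 were higher (Ccl2 and Ccl7) and 0 lower, beside 4.34% and 3.15% of 8535 genes. These 3 comparisons share the DMSO array. Between the KHS101 concentrations 1 member was higher at 5 uM, and 0 were lower, where 0.812% of 8500 genes were higher and 1.73% lower. Against retinoic acid with forskolin, KHS101 at 5 uM had 1 member higher (Cx3cl1) and 3 lower (Ccl2, Ccl7 and Ackr3), beside 8.94% and 10.2% of 8606 genes. KHS101 at 1.7 uM had 0 higher and the same 3 lower than retinoic acid with forskolin, beside 5.93% and 5.39% of 8588 genes. The members were chosen with these differences known, so nothing is read from their share.

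**Figure D2:**
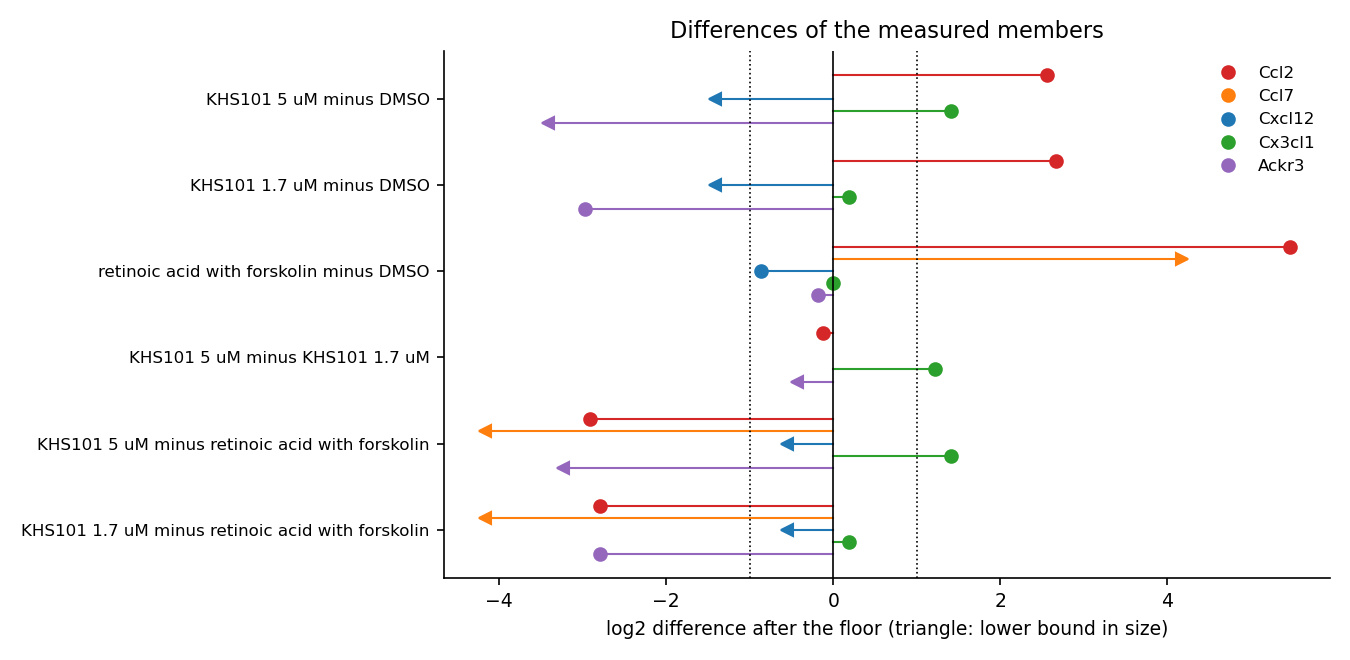
Log2 differences of the 5 measured members in the 6 comparisons after the floor of 5, with points for differences between measured values and triangles for lower bounds; dotted lines mark 2-fold. Ccl2 lay right of the line in all 3 comparisons with DMSO, Ackr3 left of it with KHS101, and Ccl7 appears only where retinoic acid with forskolin takes part.

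**Figure D3:**
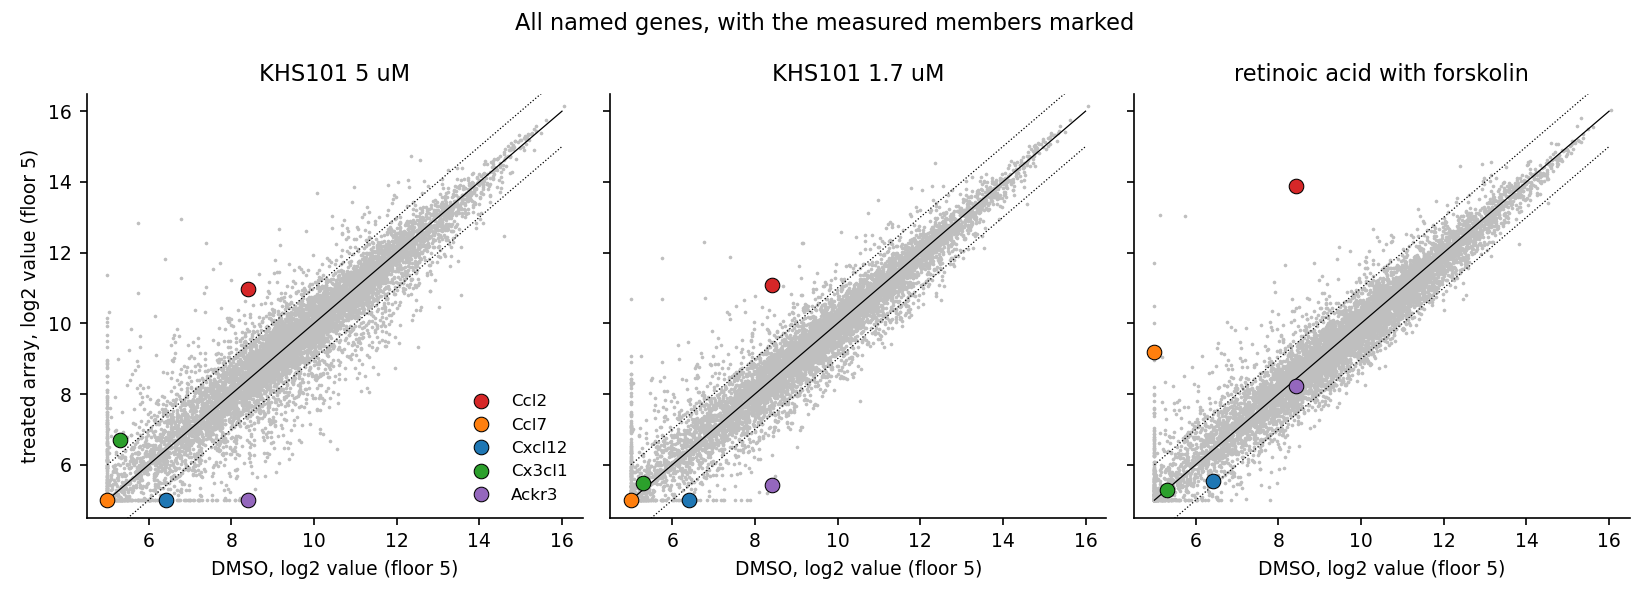
Log2 values of all named genes, treated array against DMSO, with values under 5 drawn at 5, the solid line at equality and dotted lines at 2-fold. Ccl2 lies above the upper line in all 3 panels, Ackr3 far below the lower line in both KHS101 panels and close to equality with retinoic acid and forskolin.

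The wider family was nearly silent. Of 50 other chemokine and chemokine receptor genes, 39 were annotated and 38 of these were under the floor on all 4 arrays, among them Ccr2, the receptor for CCL2 and CCL7, and Cxcl11, a further ligand of ACKR3. Cxcr5, a receptor of B cells, was the exception, at 5.23 with KHS101 at 5 uM, 5.37 with KHS101 at 1.7 uM and 5.25 in retinoic acid with forskolin, against 5.21 in DMSO. Its values hardly rose above the floor and none of its differences reached 2-fold. They come from 1 of 2 probe sets, the other being under the floor, and the median over both leaves Cxcr5 unmeasured. Over all 48 annotated family genes, 3 were above the floor with KHS101 at 5 uM, 4 with KHS101 at 1.7 uM and 6 in retinoic acid with forskolin, against 5 in DMSO.

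**Figure D4:**
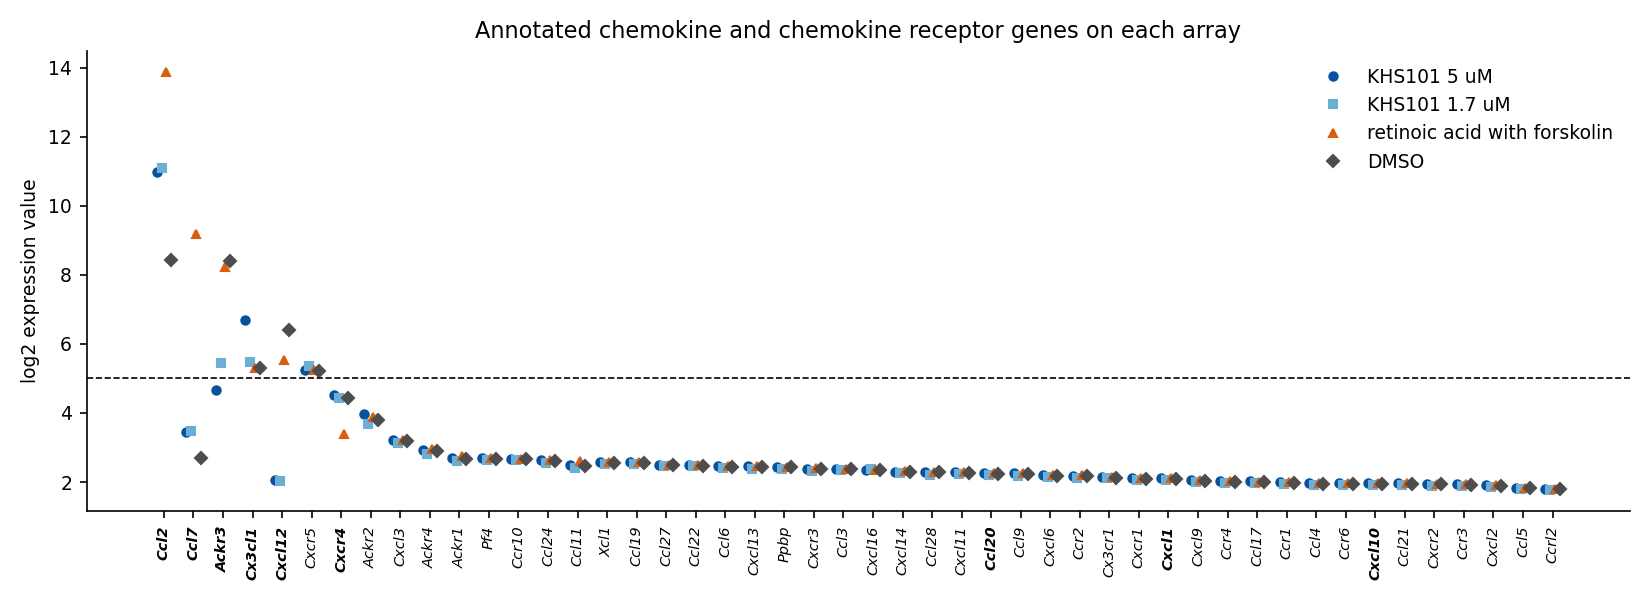
Log2 expression values of the 48 annotated chemokine and chemokine receptor genes on the 4 arrays, ordered by their highest value, with the 9 members in bold and the floor of 5 dashed; levels of different probe sets are not comparable. Apart from 5 members and Cxcr5, all genes lie under the floor.

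Genes that pass on the receptor signal, and the lists after them, are given beside the share called over all measured genes. That share was 6.16% higher and 8.1% lower with KHS101 at 5 uM, and 4.36% and 4.27% at 1.7 uM. With retinoic acid and forskolin it was 4.34% and 3.15%. In lists this short, a few calls are not read as a property of the list. Of 13 measured signalling and trafficking genes (19 annotated), 0 were called at either KHS101 concentration, with median differences of -0.05 at 5 uM and 0.05 at 1.7 uM beside 0.00 and -0.01 over all measured genes. With retinoic acid and forskolin 2 were higher and 0 lower (median 0.16, all genes -0.03): the G protein subunit gene Gnao1, 2.15-fold, and Arrb1, which encodes the beta-arrestin 1 that docks on activated receptors, 2.06-fold. Arrb1 had log2 values of 9.22 with KHS101 at 5 uM, 9.55 with KHS101 at 1.7 uM and 9.75 in retinoic acid with forskolin, against 8.71 in DMSO.

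A list of 14 genes covered chemokine processing, other ligands of these receptors and related genes such as heparan sulfate carriers. Of these 14, 8 were measured with KHS101 at 5 uM, 1 of them higher and 2 lower (median -0.39). Adm, whose peptide adrenomedullin is also taken up by ACKR3, was at least 2.70-fold higher, with values of 6.43 at 5 uM KHS101, 4.96 at 1.7 uM and 5.16 in retinoic acid with forskolin, against 3.76 in DMSO. Adam10, a protease that sheds CX3CL1 from the membrane, was 2.38-fold lower at 5 uM, and Hmgb1, a nuclear protein that can pair with CXCL12 outside the cell, 2.04-fold lower. At 1.7 uM 0 of 7 were called (median -0.34). On the retinoic acid array 1 of 8 was lower and 0 higher than in DMSO (median -0.16): the heparan sulfate carrier Sdc1, 3.85-fold.

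Genes of NF-kappaB, a factor that drives many chemokine genes, and of its inflammatory targets were mostly unmeasured. Of 29 annotated, 18 were under the floor on all 4 arrays, among them Il6, Tnf, Il1b, Icam1 and Ptgs2. With KHS101 at 5 uM 1 of 10 measured was higher and 1 lower (median 0.01), and at 1.7 uM 1 of 10 was higher and 0 lower (median 0.02). The higher gene was Cebpb, a transcription factor that stress pathways also raise, 14.5-fold at 5 uM and 4.90-fold at 1.7 uM, with values of 9.65 and 8.09 there and 6.20 on the retinoic acid array, against 5.79 in DMSO. Its relative Cebpd was 2.01-fold lower at 5 uM. In the positive control 0 of 11 were called (median 0.16). The inhibitor Nfkbia, itself a target of NF-kappaB, had 7.73, 7.78 and 7.96 on the KHS101 5 uM, KHS101 1.7 uM and retinoic acid arrays and 7.90 in DMSO.

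Of 18 annotated interferon response genes, 10 were under the floor on all 4 arrays, among them Isg15, Ifit1, Mx1 and Irf7. The measured ones were called in both directions. With KHS101 at 5 uM 2 of 7 measured were higher and 2 lower (median 0.01): Mx2, an antiviral GTPase, was at least 7.33-fold and the immunoproteasome subunit gene Psmb9 3.83-fold lower, Ifit2 was 2.49-fold higher, and Irf9, which transduces the interferon signal, was higher by 1.10 on the log2 scale. At 1.7 uM 1 of 8 was higher, Ifit2 at 2.27-fold, and 1 lower, Mx2 at no less than 7.33-fold (median 0.03). Irf9 was also the 1 gene of 7 higher with retinoic acid and forskolin, at 2.37-fold, and 0 were lower (median 0.04). The Irf9 value in DMSO, 5.21, was close to the floor.

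Markers of other cell types differed beside some members, and in RNA of a whole culture fewer cells of a type and less RNA per cell cannot be told apart. Of 16 annotated microglia and macrophage markers, 15 were under the floor on all 4 arrays, including Aif1, Itgam, Ptprc, Csf1r and Tyrobp. The exception was the purinergic receptor gene P2ry12, at 3.78 with KHS101 at 5 uM, 4.70 with KHS101 at 1.7 uM and 8.50 in retinoic acid with forskolin, against 7.66 in DMSO, which was low on the same arrays as Ackr3; the summed height of the list above the floor was 0, 0 and 3.50 log2 units on the KHS101 5 uM, KHS101 1.7 uM and retinoic acid arrays and 2.66 in DMSO. Endothelial markers were under the floor in 8 of 11 cases, Pecam1 and Tie1 among them, and Kdr, the main receptor for VEGF, was at least 2.91-fold higher with retinoic acid and forskolin than in DMSO. Ramp2, a partner of the adrenomedullin receptor, was the one endothelial marker above the floor on every array. It had 8.38, 8.49 and 6.62 on the KHS101 5 uM, KHS101 1.7 uM and retinoic acid arrays and 7.60 in DMSO. No Ramp2 difference from DMSO was called. Against retinoic acid with forskolin, Ramp2 was higher by 1.76 log2 units at 5 uM KHS101 and 1.87 at 1.7 uM, both past the 2-fold line. The summed height of the endothelial list was 3.38, 3.49 and 3.32 log2 units in the same order of treatments, against 2.60 in DMSO.

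Oligodendrocyte lineage markers were low on the KHS101 arrays, where Ackr3 and Cxcl12 were also low. Of 10 measured, 8 were lower with KHS101 at 5 uM (median -1.21) and 3 at 1.7 uM (median -0.59), with 0 higher at either. Their summed height above the floor over 12 genes was 50.4 log2 units at 5 uM, 55.5 at 1.7 uM and 68.3 in retinoic acid with forskolin, against 63.1 in DMSO, and only Cspg4 was under the floor throughout. Myelin basic protein Mbp was 4.32-fold lower at 5 uM, the transcription factor gene Nkx2-2 3.13-fold and the galactolipid enzyme gene Ugt8 3.09-fold. At 1.7 uM Mbp was 2.90-fold, Ugt8 2.35-fold and Nkx2-2 2.06-fold lower. With retinoic acid and forskolin 2 of 11 were higher and 0 lower (median 0.27), Mbp at 2.44-fold and Myrf at 2.18-fold. On that array Cxcl12 was 1.82-fold lower than in DMSO, not called, and Ackr3 differed by -0.18. The part of this lineage in the Ackr3 and Cxcl12 values was not tested.

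Of 12 fibroblast and mural markers, 9 were under the floor on all 4 arrays, including Col1a1, Col1a2, Col3a1, Dcn, Lum and Pdgfrb. The other 3 were Mgp, Postn and Acta2, and the summed height of the list was 2.98 log2 units with KHS101 at 5 uM, 4.09 with KHS101 at 1.7 uM and 11.4 in retinoic acid with forskolin, against 1.48 in DMSO. The matrix gene Mgp was 245-fold higher with retinoic acid and forskolin, with values of 3.27, 4.92 and 13.06 on the KHS101 5 uM, KHS101 1.7 uM and retinoic acid arrays, against 5.13 in DMSO. Postn, a matrix protein gene, was at least 3.48-fold, 6.86-fold and 3.96-fold higher than in DMSO on the same arrays in that order. The smooth muscle actin gene Acta2 had 6.19, 6.31 and 6.39 on the treated arrays and 6.36 in DMSO.

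Astrocyte and neuron markers differed as well. In the positive control 4 of 4 measured astrocyte markers were higher (median 1.22), among them Fgfr3 at 2.52-fold, Ndrg2 at 2.45-fold and Aldoc at 2.20-fold, whereas 2 of 4 were lower with KHS101 at 5 uM (median -1.20) and 0 were called at 1.7 uM (median -0.13). Of 10 annotated astrocyte markers, 6 were under the floor on all 4 arrays, Gfap and Aqp4 among them. The summed height of the astrocyte list was 20.8 log2 units with KHS101 at 5 uM and 24.2 at 1.7 uM. It was 29.4 in retinoic acid with forskolin and 24.5 in DMSO. Of 7 neuron markers measured with KHS101 1 was higher at each concentration, Gad1, which makes the transmitter GABA, at least 7.75-fold at 5 uM and at least 4.12-fold at 1.7 uM. On the retinoic acid array 1 of 6 was higher, the tubulin gene Tubb3 at 2.20-fold. Of 14 annotated neuron markers, 7 were under the floor on all 4 arrays, including Dcx, Rbfox3 and Snap25. The summed height of the neuron list was 26.9 log2 units with KHS101 at 5 uM and 27.4 at 1.7 uM. It was 25.2 in retinoic acid with forskolin and 24.8 in DMSO. Of 9 measured progenitor markers, 4 were lower and 1 higher at 5 uM KHS101, 2 lower and 1 higher at 1.7 uM, and 1 lower and 0 higher on the retinoic acid array. Sox3 was 4.94-fold, Fabp7 4.33-fold and the receptor gene Notch1 2.74-fold lower at 5 uM. At 1.7 uM Notch1 differed by -0.84 on the log2 scale, not called. The higher gene was the Notch target Hes1, with a log2 difference of 1.34 at 5 uM and 1.53 at 1.7 uM. Vim was 2.16-fold lower with retinoic acid and forskolin, and Nes differed by 0.52, not called, at 5 uM. The part of microglial, endothelial, fibroblast, astrocyte, neuron and progenitor transcripts in the chemokine values was not tested.

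**Figure D5:**
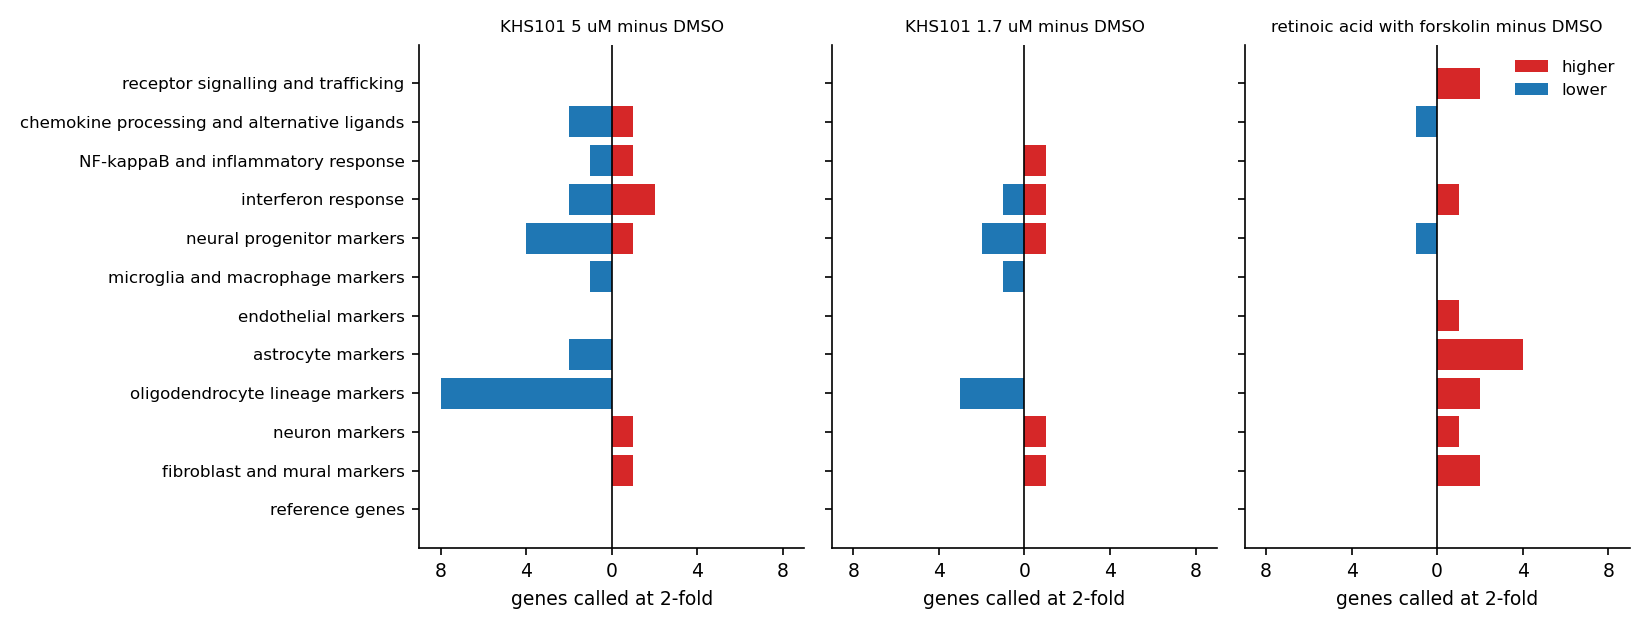
Genes called higher (right, red) and lower (left, blue) at 2-fold in 12 gene lists for each treatment against DMSO. The oligodendrocyte lineage list has 8 lower genes with KHS101 at 5 uM and 3 at 1.7 uM, and the signalling, NF-kappaB and interferon lists hold at most 2 genes in either direction.

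Genes with the most similar pattern were sought among 8645 other genes by the Euclidean distance between the 3 log2 differences from DMSO, which share that array. Nearest to Ackr3 were C1ql1, a secreted synaptic organiser (distance 0.20), the synaptic adhesion gene Lrrc4 (0.35) and the basement membrane gene Nid2 (0.60). All 3 were under the floor with KHS101 at 5 uM, where their log2 differences from DMSO of -3.30, -3.09 and -3.48 are bounds, and their differences lay between -0.19 and 0.39 on the retinoic acid array. Nearest to Ccl2 were the calcium-binding Tesc (0.50), the actin-binding Synpo (1.03) and the transcription factor Egr2 (1.69), and all 3 were under the floor in DMSO, where Ccl2 was not.

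For Ccl7 the nearest were the peptide transporter gene Slc15a2 (0.68), the exchange factor Dock6 (1.06) and the pepsinogen gene Pgc (1.20). The Ccl7 differences with KHS101 were set to 0 by the floor, and that with retinoic acid and forskolin is a bound. These distances therefore depend on the floor. Slc15a2 had a level of 9.06 with retinoic acid and forskolin, against 5.18 in DMSO. Cxcl12 lay nearest to the mitotic kinesin Kif18b (0.16), Ptrhd1 (0.17) and the centrosomal gene Tacc3 (0.17), but its differences with KHS101 are bounds set by the floor, while those of the 3 were measured on both sides. Cx3cl1 lay nearest to Zfp94 (0.11), Spin2b (0.14) and LOC100911177 (0.17). Zfp94 was under the floor in DMSO (4.51) and on the retinoic acid array (4.16), and Spin2b on the retinoic acid array (4.29). Distances of this size rest on 4 arrays and were not tested.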

How the data were processed

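RNA of 4 cultures was measured on 1 Affymetrix array each. The deposited log2 expression values cover 31099 probe sets on each array; GCRMA and R 2.6.2 are named, per the submitters' processing notes, with no step assigned to either and no genome build. The log2 scale was read from the values, which reached 16.1. The sorted arrays lay within 0.19 of each other at every rank, so a shift of all genes in 1 direction cannot be seen.

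Of 31042 probe sets other than controls, the platform annotation gave 1 symbol to 20826 and several to 436, and 9780 were unnamed here; 20758 of the named ones matched a RefSeq gene, and no symbol needed an update. Each gene was represented by its probe set of highest mean value. Values were raised to log2 = 5 and differences called at 2-fold. Nothing was tested, since no group has a replicate. The number of arrays limits the precision.

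The members, the gene lists and the motifs were chosen with earlier results of these data known. Genes named are all members, other family genes called in any comparison (there were 0), up to 3 called genes per list and comparison with DMSO, and the 3 genes nearest to each measured member. List genes under the floor and Cxcr5, Nfkbia, Nes, Sox2, Ramp2, Acta2, Hes1 and Irf9 at 5 uM and Ccl11 as a neighbour are named beyond this rule, after their values were seen. The calling step was tested on simulated data, with changes placed only in genes well above the floor in DMSO. Calls near the floor were not checked in this way. Alternatives were floors of 4 and 6 and none, thresholds of 1.5-fold and 3-fold, the median over a gene's probe sets, and quantile normalization. Calculations used Python 3.11.15, numpy 2.4.6 and pandas 2.3.3.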

Additional observations from a re-analysis of the deposited data

How the results depend on the processing

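Counts of called members moved by over 1.5 times in 5 of 42 recalculations; the count of other family genes was 0 in all 42 of its own. With a floor of 6, and likewise at 3-fold, 2 members were called for KHS101 at 5 uM against DMSO (Ccl2 and Ackr3) and 0 between the KHS101 concentrations. With no floor, 5 were called for KHS101 at 1.7 uM against retinoic acid with forskolin, Cxcr4 being added from values under the floor, where differences have no meaning, and Cxcl12 from a KHS101 value under it and a retinoic acid value above it. With a floor of 4 that Cxcl12 difference was -1.55, a bound. Single differences moved by over 1.5 times in 23 of 119 recalculations, all of them changes of the floor, and no called difference turned its direction. Taking the median over probe sets left Cxcl12 and Cxcr5 unmeasured, so neither gives a value there. No paired analysis was possible because each group has 1 array, and no array could be left out of a group. The 3 comparisons with DMSO share 1 array, and signal near the floor limits Cx3cl1, Cxcl12 and Cxcr4.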
